A study of Mus musculus with 6 samples.

Results

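The nuclear genes of the mitochondrial respiratory chain were examined for p53 binding in a ChIP-seq experiment on mouse epidermis, using its basal progenitor cells. They were chosen by name: every protein-coding RefSeq gene on chromosomes 1 to 19 and X whose symbol starts with Nduf, Uqcr, Atp5, Cox4, Cox5, Cox6, Cox7 or Cox8, with Sdha, Sdhb, Sdhc, Sdhd, Cyc1 and Cycs added. This gave 98 genes of 21631. A gene was counted as having a summit, the single base at which a peak is highest, if one lay inside it or within 10 kb of either end. The cells came from 8-week-old animals, sorted for high alpha-6 integrin and for EpCAM, and carried p53WT or p533KR, here WT and 3KR. From general knowledge of the allele, 3KR has lysines of the DNA-binding domain changed to arginine and cannot be acetylated there. Nutlin-3a, which blocks the degradation of p53 by MDM2, was present at 25 µM in the medium used for digestion, for both genotypes. The labels give no sex, strain or number of animals per library.

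Each genotype had 3 libraries, but 1 combined list of summits, 1668 for WT and 6753 for 3KR. Values of single libraries were not used here, so no spread between animals and no test between genotypes can be given, and depth is unknown. The counts over the 98 genes stand beside the same count over all protein-coding genes. Names of summits contain WT_1 in one list and Doxo in the other, the 3KR list, while GEO's labels speak of 3 libraries per list and name Nutlin-3a as the agent. A difference of agent, of libraries used or of depth cannot be told apart from genotype in any comparison of the lists. No input or control values and no expression values were used here, so the sort could not be checked against markers.

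The respiratory chain passes electrons from NADH, through complex I, and from succinate, through complex II, to ubiquinone. Complex III, the carrier cytochrome c and complex IV take them on to oxygen, and ATP synthase uses the resulting proton gradient to make ATP. Most subunits are encoded in the nucleus, and their promoters are known for GC-rich sequence and for sites of NRF1, ETS factors such as GABP, and YY1. p53 is known to bear on respiration through genes outside the name rule, such as Sco2, a copper chaperone of complex IV, and its 3KR form is known for keeping part of the control of metabolic genes.

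Of the 25 genes with a 3KR summit within 1 kb of a RefSeq transcription start, 23 had it upstream, so the sequence there is shown for 8 of them. They are those with the highest scored 3KR summit in the 250 bases before a RefSeq start, at most 2 of a complex. Higher scored summits farther upstream, such as those of Atp5e and Ndufc1 described further on, were outside this stretch. The bases come from RefSeq (GRCm38.p6, whose main chromosomes are those of mm10), run 5′ to 3′ toward the start of the gene, and end at the last base before it. They stop earlier where another protein-coding gene begins. Capitals mark matches, on either strand, to CCGGAAG (ETS factors), CCAAT (NF-Y), GGGCGG (Sp1), the NRF1 palindrome, the YY1 motif or the p53 decamer, the unit that occurs as a pair in a p53 response element. They also mark an open form of the NRF1 palindrome, in which 1 inner base is free. The open form includes the palindrome itself and was chosen after the sequences were seen.
Atp5pb, chr3:105959264-105959497, minus strand: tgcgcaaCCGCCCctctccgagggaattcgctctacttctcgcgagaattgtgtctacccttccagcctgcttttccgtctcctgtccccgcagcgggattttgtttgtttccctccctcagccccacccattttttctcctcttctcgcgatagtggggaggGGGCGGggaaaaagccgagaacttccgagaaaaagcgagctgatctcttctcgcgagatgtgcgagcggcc
Sdha, chr13:74350241-74350316, minus strand: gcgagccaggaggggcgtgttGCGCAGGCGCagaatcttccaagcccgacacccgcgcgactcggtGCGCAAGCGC
Cox6a1, chr5:115348959-115349208, minus strand: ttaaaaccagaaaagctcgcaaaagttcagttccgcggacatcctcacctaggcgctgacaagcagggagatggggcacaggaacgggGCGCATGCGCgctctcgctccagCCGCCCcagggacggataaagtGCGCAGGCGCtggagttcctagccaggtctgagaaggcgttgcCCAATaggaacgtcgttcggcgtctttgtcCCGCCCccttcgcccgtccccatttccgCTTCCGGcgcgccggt
Atp5b, chr10:128083057-128083306, plus strand: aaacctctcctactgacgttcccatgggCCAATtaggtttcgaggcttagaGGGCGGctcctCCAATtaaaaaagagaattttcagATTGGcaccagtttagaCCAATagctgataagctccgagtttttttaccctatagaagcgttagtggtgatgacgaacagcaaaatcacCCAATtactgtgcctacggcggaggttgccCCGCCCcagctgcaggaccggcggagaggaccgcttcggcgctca
Ndufab1, chr7:122101849-122102098, minus strand: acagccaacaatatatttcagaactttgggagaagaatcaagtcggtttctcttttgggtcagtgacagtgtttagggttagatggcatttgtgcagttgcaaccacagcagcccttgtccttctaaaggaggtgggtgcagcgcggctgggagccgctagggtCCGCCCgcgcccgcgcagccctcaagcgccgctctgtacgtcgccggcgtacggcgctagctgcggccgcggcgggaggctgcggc
Cox5b, chr1:36691237-36691486, plus strand: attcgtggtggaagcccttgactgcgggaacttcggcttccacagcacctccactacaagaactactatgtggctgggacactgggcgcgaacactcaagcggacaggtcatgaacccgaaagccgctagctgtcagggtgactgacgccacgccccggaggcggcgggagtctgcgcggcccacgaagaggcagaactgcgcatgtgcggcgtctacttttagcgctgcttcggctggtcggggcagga
Ndufb10, chr17:24724424-24724673, minus strand: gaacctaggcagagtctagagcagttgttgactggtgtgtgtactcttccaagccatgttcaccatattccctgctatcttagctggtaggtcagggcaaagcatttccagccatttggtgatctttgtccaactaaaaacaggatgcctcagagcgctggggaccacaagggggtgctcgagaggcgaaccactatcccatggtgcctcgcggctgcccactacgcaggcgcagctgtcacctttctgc
Cycs, chr6:50566570-50566819, minus strand: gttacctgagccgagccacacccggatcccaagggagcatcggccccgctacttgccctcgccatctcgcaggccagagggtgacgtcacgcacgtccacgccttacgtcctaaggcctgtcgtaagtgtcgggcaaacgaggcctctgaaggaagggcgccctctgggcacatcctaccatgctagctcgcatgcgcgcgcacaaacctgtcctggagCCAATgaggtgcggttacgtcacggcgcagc

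Sdha, the catalytic subunit of complex II, and Ccdc127 run away from each other with 76 bases between them, and the 3KR summit lay 15 bp upstream of Sdha and 62 bp from Ccdc127. Both matches in these 76 bases, the runs of capitals printed above, were to the open form of the NRF1 palindrome. At Atp5pb, the b subunit of the ATP synthase stalk, 234 bases separate the gene from Wdr77, and the summit lay 81 bp from Atp5pb and 154 bp from Wdr77. The stretch of Cox6a1, a subunit of complex IV, held 7 matches when a site of the NRF1 palindrome, its first run of capitals, is counted under both forms, and its summit lay 116 bp upstream of the start. Atp5b, the catalytic beta subunit of ATP synthase, held 5 CCAAT and 2 GGGCGG matches, with the summit at 122 bp upstream. The stretches of Cox5b and Ndufb10 held no match, that of Ndufab1 1 GGGCGG and that of Cycs 1 CCAAT.

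**Figure D1:**
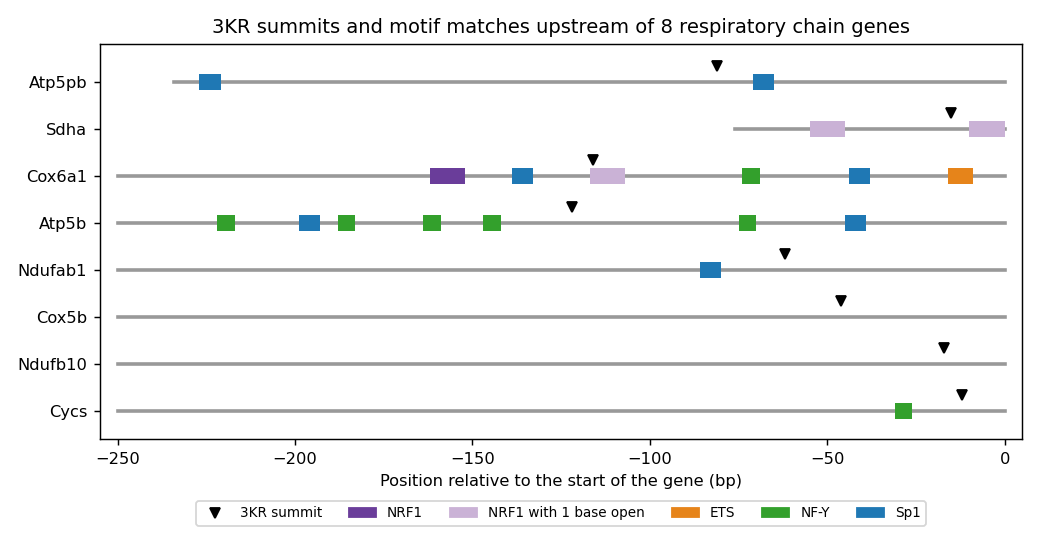
Map of the sequences printed above, with the position relative to the start of the gene in bp on the x axis, 1 line per gene, bars for motif matches and triangles for 3KR summits. Summits lay between 12 bp (Cycs) and 122 bp (Atp5b) upstream of the start.

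In windows of 300 bases around each RefSeq start (250 before it and 50 from it on), the p53 decamer was found in 0 of 26 windows of these genes that hold a 3KR summit, which belong to 23 genes. It was in 7.37% of the 21045 windows of all protein-coding genes and in 6.69% of the 1540 of them with a 3KR summit, and in 4 of the 58 windows of respiratory chain genes without a summit (6.90%). This says only that these letters are not in the 26 windows. A pair of p53 decamers at most 13 bases apart was in 10 of all windows and in 0 of the 1540. The NRF1 palindrome was in 3 of the 26 windows (11.5%) and 4 of the 58 (6.90%), against 1.34% of all windows and 8.31% of those with a 3KR summit. Its open form was in 12 of the 26 (46.2%) and in 8 of the 58 (13.8%), against 6.44% of all windows and 36.6% of all those with a 3KR summit. CCGGAAG was in 3 of the 26 (11.5%) and in 16 of the 58 (27.6%), against 11.7% of all windows and 21.8% of those with a 3KR summit. GGGCGG was in 15 of the 26 (57.7%) and 22 of the 58 (37.9%), against 46.7% of all windows and 73.5% of those with a 3KR summit. CCAAT was in 10 of the 26 (38.5%) and 26 of the 58 (44.8%), against 38.5% of all windows and 42.0% of those with a 3KR summit. The YY1 motif was in 1 of the 26 (3.85%) and 5 of the 58 (8.62%), against 1.22% of all windows and 2.79% of those with a 3KR summit. Sequence composition also differed between these sets of windows. The median GC content was 59.5% in the 26 windows, 56.5% in the 58, 56.7% in all windows and 63.0% in those with a 3KR summit, and the median number of CpG pairs was 23, 18, 13 and 26. The part of composition in the motif shares was not tested.

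In the 3KR list 38 of the 98 genes had a summit, or 38.8%, where 23.6% of all protein-coding genes had one. In the WT list 3 had one, Uqcrc1, Ndufs7 and Ndufaf2, or 3.06%, where 5.10% of all genes had one. A summit in both lists was found at Uqcrc1 and Ndufs7 (2.04%, against 3.97% of all genes), in WT only at Ndufaf2 (1 gene, with 1.13% of all genes), and in 3KR only at 36 genes (36.7%, against 19.7%). Summits of the lists at most 200 bp apart were found at 1 gene, Ndufs7, where 3.15% of all genes had such a pair. For the 36 genes with a 3KR summit only, the nearest WT summit lay at a median of 396 kb from the gene, and for 2 of them within 50 kb. This median was not computed over all genes, and the 36 were picked for having no WT summit within 10 kb. Inside or within 50 kb, 9.18% of the 98 genes and 11.8% of all protein-coding genes had a WT summit. The genes are short, with a median length of 7.15 kb against 17.3 kb for all protein-coding genes, so less sequence was searched for each. When only summits within 10 kb of a gene end were counted, the same share of the 98 genes had a WT summit (3.06%, against 3.44% of all genes). The WT shortfall was thus smaller in that count. The shares were 2.04% against 2.64% for both lists and 38.8% against 20% for 3KR.

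**Figure D2:**
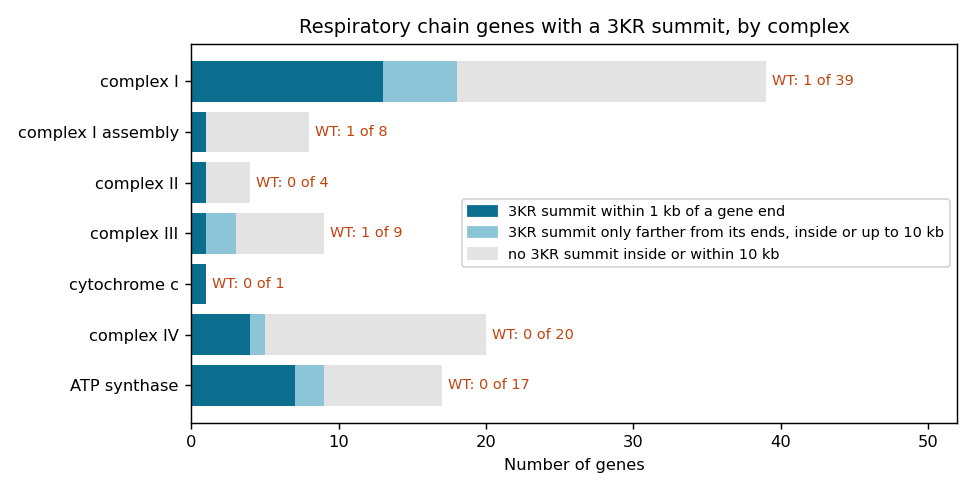
Number of genes (x axis) in each complex or group (y axis), divided by where the 3KR summit lay, with the count of genes with a WT summit written beside each bar. A 3KR summit was found at 18 of 39 complex I genes, 9 of 17 ATP synthase genes and 5 of 20 complex IV genes. A WT summit was found at 3 genes in all. Over all protein-coding genes the shares were 23.6% for 3KR and 5.10% for WT.

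Gene ends held most of the 3KR summits. Within 1 kb of an end, 28 of the 98 genes had a 3KR summit (28.6%, against 10.8% of all protein-coding genes), and 1 had a WT summit (1.02%, against 1.06%). With the 3KR list reduced to its 1668 highest scores, the number of WT summits, 6 of the 98 genes had one there (6.12%, against 2.85%), and 12 had one inside or within 10 kb (12.2%, against 7.16%). The lowest score in that shortened list, 16.6, was shared by 101 summits, so the end of the list falls within a tie. Among them were that of Ndufab1 and 1 counted for Ndufa6, which lay 4180 bp outside Ndufa6 and 87 bp from Smdt1. Without these 101 summits, an alternative chosen after the data were seen, the counts were 5 (5.10%, against 2.69%) and 10 (10.2%, against 6.78%), and with all of them 6 (against 2.86%) and 12 (against 7.17%). RefSeq starts with their strand were matched for 79 of the 98 genes. Of these, 25 had a 3KR summit within 1 kb of a start (31.6%, against 11.4% of the 17274 genes with a start), 23 of them within 250 bp (29.1%, against 9.17%), and 0 had a WT summit there, where 1.05% of all did. The summit was upstream at 23 of the 25 genes and downstream at Uqcrc1 (39 bp) and Atp5c1 (21 bp). The median position was 61 bp upstream (quartiles 122 and 35 bp upstream), and 17 of the 25 (68.0%) were within 100 bp of the start. Over the 1972 protein-coding genes with such a summit the median was 74 bp upstream (quartiles 156 and 7 bp upstream), 76.8% were upstream and 50.4% were within 100 bp. The farthest of the 25 were Atp5d, 788 bp upstream, and Atp5g1, 380 bp upstream. The summits of Atp5d and Atp5g3 were upstream of a RefSeq start that lies within the gene. They were inside the gene, 2789 and 950 bp from its nearer end.

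**Figure D3:**
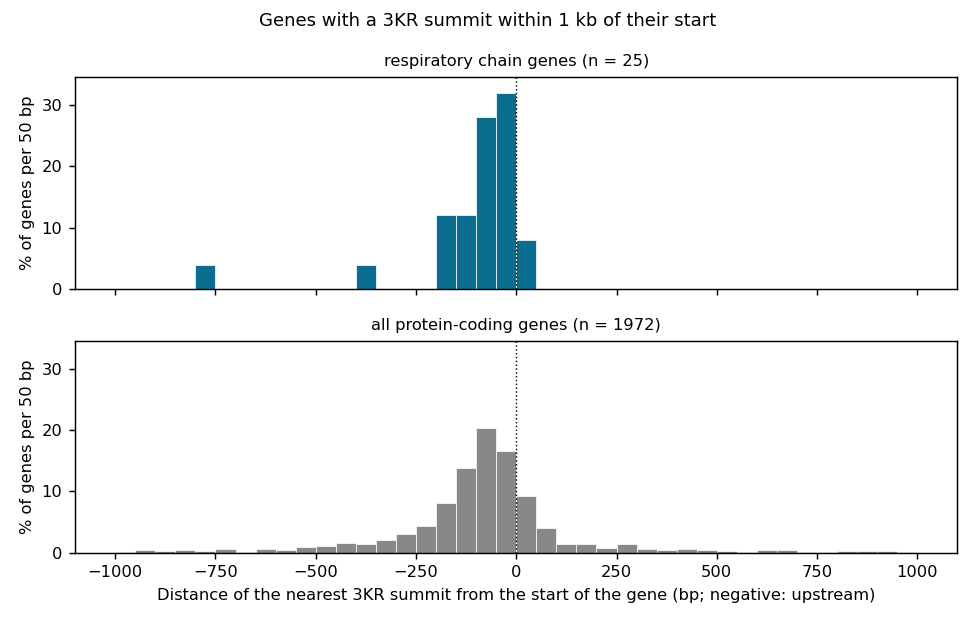
Distance of the nearest 3KR summit from the RefSeq start in bins of 50 bp (x axis, negative values upstream), as percent of genes (y axis), for 25 respiratory chain genes above and 1972 protein-coding genes below. Both sets peak within 100 bp upstream of the start.

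The score of a summit is the authors' −log10 p or q value from the peak caller and was compared only within a list. The 44 3KR summits of these genes had a median score of 11.8 (quartiles 8.74 and 16.6, range 3.04 to 54.1), where the median of all 6753 was 10.1 (6.87 and 15.9). Their median rank was 39.4% of the list, against 49.3% for the 4828 summits of any protein-coding gene. In the highest 10% of the list were 4 of the 44, beside 479 of the 4828. These 4 were counted for Ndufs7, Atp5pb, Sdha and Atp5e, and those of Ndufs7 and Atp5e lay nearer to another gene. The 29 within 1 kb of an end of the gene had a median score of 10.7 and a median rank of 44.8%. Both values were the same for the 1990 3KR summits within 1 kb of an end of any protein-coding gene. Scores were coarse. Of 3KR summits 85.5% had a score that another summit also had, and of WT summits 52.4%, so ranks near each other are often ties. Uqcrc1, Ndufs5, Atp5c1 and Atp5g1, for example, shared the score 10.1 and rank 3328. The 3 WT summits scored 11.9 (Uqcrc1, rank 593 of 1668), 10.3 (Ndufaf2, rank 696) and 8.54 (Ndufs7, rank 915), beside a median of 9.42 for the WT list.

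**Figure D4:**
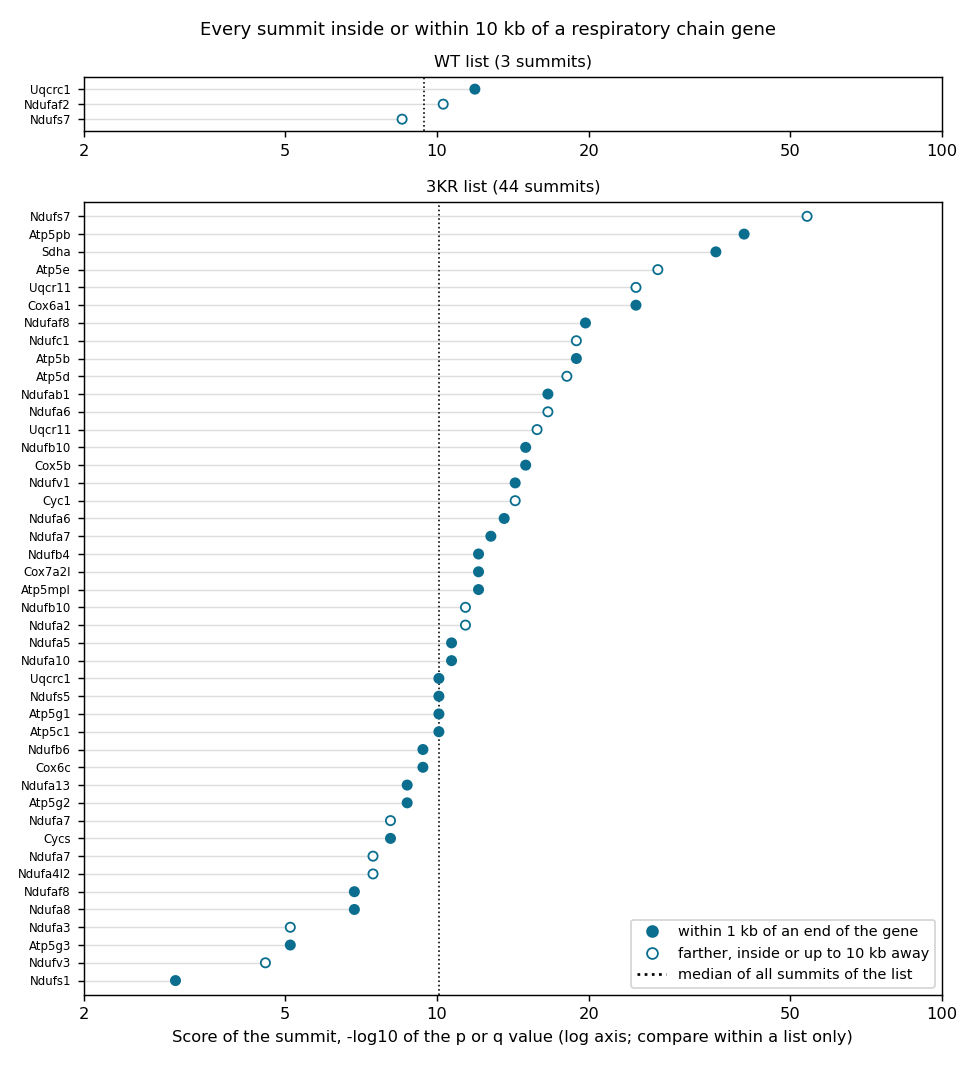
Score of every summit inside or within 10 kb of a respiratory chain gene, on a log axis, with 1 row per summit and the WT list above the 3KR list. Filled points lie within 1 kb of an end of the gene, open points farther, and dotted lines are the medians of the whole lists, 9.42 and 10.1.

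Complex I, which takes electrons from NADH, had a 3KR summit at 18 of 39 subunit genes (46.2%, where 23.6% of all protein-coding genes had one), 13 of them within 1 kb of an end (33.3%, against 10.8%). Among the 7 genes of its catalytic core, Ndufs7, Ndufv1 and Ndufs1 had one (42.9%). Ndufv1 encodes the subunit that binds NADH (chromosome 19, 4007499 to 4012755), and its summit at 4012814, 59 bp upstream of the start, scored 14.3 (rank 1978 of 6753). Ndufs1, which encodes an iron-sulfur subunit, had its summit at 63176872 on chromosome 1, 50 bp outside the gene and 41 bp inside the end of Eef1b2, a translation elongation factor gene. With a score of 3.04 (rank 6717) it was the lowest of the 44. The other core genes had none in reach.

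Ndufs7 encodes the core subunit next to the ubiquinone site (chromosome 10, 80249105 to 80256794), and the highest scored of the 44 3KR summits was counted for it. This summit, at 80264942 with a score of 54.1 (rank 165), lay 7 bp from the WT summit at 80264949, so both lists held the site. It was 8148 bp outside Ndufs7, inside Dazap1, an RNA-binding protein gene, 3580 bp from its nearer end, and 3917 bp from Gamt. Gamt encodes an enzyme of creatine synthesis and is known as a p53 target. Both genes lay closer to the site than Ndufs7.

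Accessory subunits of complex I had a 3KR summit at 15 of 32 genes (46.9%, against 23.6% of all genes). Within 1 kb of an end 11 of the 32 had a 3KR summit (34.4%, against 10.8%). Ndufab1, which encodes the mitochondrial acyl carrier protein, had it at 122101910 on chromosome 7, 62 bp upstream of the start, with a score of 16.6 (rank 1570). Ndufb10, Ndufa6 and Ndufa7 had a summit 17, 61 and 55 bp upstream, with scores of 15.0, 13.6 and 12.8. That of Ndufa7 also lay inside Rps28, a ribosomal protein gene, 45 bp from its end. Ndufb4, Ndufa10, Ndufa5, Ndufs5, Ndufb6 and Ndufa8 had a summit 125, 86, 48, 81, 43 and 31 bp upstream, with scores from 6.87 to 12.1. At Ndufa13 it was 1230 bp upstream of the RefSeq start and 692 bp from the nearer end of the gene, inside Tssk6. Summits of Ndufc1, Ndufa2, Ndufa3 and Ndufv3 lay between 3706 and 9722 bp outside the gene, each nearer to another gene. Among the 8 assembly factors named Ndufaf, which help to build complex I and are no part of it, only Ndufaf8 (12.5%) had a 3KR summit 152 bp upstream (score 6.87) and another 878 bp upstream (19.7), both inside Tepsin.

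At complex II only Sdha of 4 genes had a 3KR summit in reach (25.0%, against 23.6% of all genes). It stood at 74350255 on chromosome 13, beside the gene at 74322255 to 74350240, and scored 35.7 (rank 384). The nearest 3KR summits of Sdhb, Sdhc and Sdhd, which encode the iron-sulfur and membrane subunits, lay 81.5, 15.1 and 67.7 kb away. No WT summit was within 10 kb of any of the 4, where 5.10% of all genes had one in reach.

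Complex III, the cytochrome bc1 complex, had a 3KR summit at 3 of 9 genes (33.3%, against 23.6% of all genes), and at 1 of them, Uqcrc1, within 1 kb of an end. Uqcrc1 encodes a core protein of the complex (chromosome 9, 108936648 to 108949641, plus strand) and had summits of both lists at its opposite ends. The 3KR summit at 108936687 lay 39 bp downstream of the start (score 10.1, rank 3328). The WT summit at 108949363 lay 278 bp inside the other end, 12676 bp from the 3KR summit and 4223 bp from Col7a1, which encodes the collagen of anchoring fibrils below the epidermis. Summits counted for Uqcr11 and Cyc1, the cytochrome c1 gene, lay at other genes. Those of Uqcr11 were 25 bp outside Mbd3 (score 24.8) and inside Mbd3 (15.8), and that of Cyc1 was between Maf1 and Sharpin, 83 and 101 bp away (14.3).

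Cycs encodes cytochrome c, which carries electrons to complex IV and starts apoptosis when it leaves the mitochondrion. Its 3KR summit, at 50566581 on chromosome 6, lay 12 bp upstream of the start, the closest upstream of the 25, and scored 8.10 (rank 4303). No WT summit was in reach of Cycs.

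Complex IV, cytochrome c oxidase, had a 3KR summit at 5 of 20 genes (25.0%, against 23.6% of all genes), 4 of them within 1 kb of an end (20%, against 10.8%). Cox6a1 (chromosome 5, 115345652 to 115348958) had it at 115349074 with a score of 24.8 (rank 762). It was the only 3KR summit inside or within 10 kb of Cox6a1, and it lay 5521 bp from Triap1, known as a p53 target. Cox5b (46 bp upstream, score 15.0), Cox7a2l (166 bp upstream, 12.1), which encodes a factor of supercomplexes, and Cox6c (67 bp inside its nearer end, 9.39) followed. Ndufa4l2, a relative of the complex IV subunit gene Ndufa4, had a summit 5247 bp outside, at an end of Shmt2, which encodes a mitochondrial enzyme of one-carbon metabolism. Isoforms best known from other tissues, relatives and gene copies made up 10 of the genes (Cox4i2, Cox6a2, Cox6b2, Cox7a1, Cox7b2, Cox8b, Cox8c, Ndufa4l2, Ndufb4b and Ndufb4c). Of these, Ndufa4l2 had a 3KR summit in reach (10%, against 23.6% of all genes). Within 1 kb of an end 0 of the 10 had one, where 10.8% of all genes did.

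ATP synthase had a 3KR summit at 9 of 17 genes (52.9%, against 23.6% of all genes), 7 of them within 1 kb of an end (41.2%, against 10.8%). None of the 17 had a WT summit, where 5.10% of all genes had one. The 9 genes with a 3KR summit were as follows. Among them, Atp5b belongs to the catalytic head and had its summit at 128083185 on chromosome 10 (score 18.9, rank 1274). Genes of the central stalk below the head were Atp5c1, the gamma subunit gene (10.1), Atp5d, the delta subunit gene (18.1, inside the gene), and Atp5e, the epsilon subunit gene. That of Atp5e scored 27.4 (rank 635), lay 9048 bp outside the gene and was 149 bp from Prelid3b. Atp5pb had the highest score of the complex, 40.6 (rank 292), at 105959344 on chromosome 3. All 3 genes of the c ring, which encode the same mature protein, had a summit upstream of a start: Atp5g2 at 35 bp (score 8.74), Atp5g3 at 188 bp (5.13) and Atp5g1 at 380 bp (10.1). Atp5mpl had one 35 bp outside the gene (12.1). Atp5a1, the alpha subunit gene, had none within 10 kb, and its nearest 3KR summit was 17.1 kb away.

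Many summits were also beside another gene. Of the 98 genes, 56.1% have an end of another protein-coding gene within 1 kb of one of their own, against 25.1% of all protein-coding genes. Of the 29 3KR summits within 1 kb of an end of a respiratory chain gene, 10 were within 1 kb of an end of another gene too, and 24 were nearer to the respiratory chain gene than to any other. Of the 15 farther away, 14 were nearer to another gene, the exception being that inside Atp5d. When each summit was counted only for its nearest gene, 25 of the 98 genes kept a 3KR summit (25.5%, against 17.3% of all genes) and 1, Uqcrc1, a WT summit (1.02%, against 3.99%).

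Just inside the 10 kb distance were Ndufa3 and Atp5e in 3KR (9722 and 9048 bp) and Ndufaf2 in WT (9000 bp), whose summit was 885 bp from Smim15. Just outside in 3KR was Cox7a1, at 10254 bp (score 6.27).

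Other genes of the mitochondrion were set beside these by lists, and the differences between lists were not tested. Each share below is to be read against the 23.6% of all protein-coding genes with a 3KR summit. Assembly factors outside the name rule had a 3KR summit at 1 of 8 genes for complex I (12.5%), at 4 of 10 for complexes II and III (40.0%), at 8 of 25 for complex IV (32.0%) and at 4 of 6 for ATP synthase (66.7%). Those within 100 bp of a gene end included Cox11 (score 20.6), Cox17 (15.0) and Cmc1 (12.8), which serve the copper supply or assembly of complex IV, and Sdhaf4 (13.6), an assembly factor of complex II. Neither Sco1 nor Sco2 had a summit in reach. In the tricarboxylic acid cycle 4 of 17 genes had a 3KR summit (23.5%, the level of all genes), led by Mdh2, the malate dehydrogenase gene, at 67 bp from an end (30.1, rank 543). Of 13 genes of ubiquinone synthesis 4 had one (30.8%), among them Coq8a at 8 bp (10.7), and of 12 regulators of mitochondrial biogenesis 6 had one (50%). These were Esrra, a nuclear receptor gene (32.9, rank 452), Nrf1, Yy1, Polrmt, Pprc1 and Gabpb1. Of the 10 genes of cytochrome c release, 6 had a 3KR summit (60.0%), Aifm1 at 4 bp and Apaf1 at 82 bp from an end among them, and Bbc3, which encodes PUMA, a WT summit only. Atpaf1 and Coq8b were the other genes of these lists with a WT summit, the first at 1 bp from a 3KR summit. That of Coq8b, at 27225264 on chromosome 7, was also at most 200 bp from a 3KR summit, at 27225144.

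Large families of other housekeeping complexes gave 35 of 90 genes with a 3KR summit for cytosolic ribosomal proteins (38.9%), 11 of 40 for the proteasome (27.5%) and 19 of 78 for mitochondrial ribosomal proteins (24.4%), beside 38.8% for the respiratory chain and 23.6% for all protein-coding genes. Within 1 kb of an end these were 27.8%, 17.5%, 15.4%, 28.6% and 10.8%. In WT the counts were 4 of 90 (4.44%), 3 of 40 (7.5%) and 4 of 78 (5.13%), beside 3 of 98 (3.06%) and 5.10% of all genes. Median gene lengths were 3169, 11930, 7690 and 7154 bp.

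**Figure D5:**
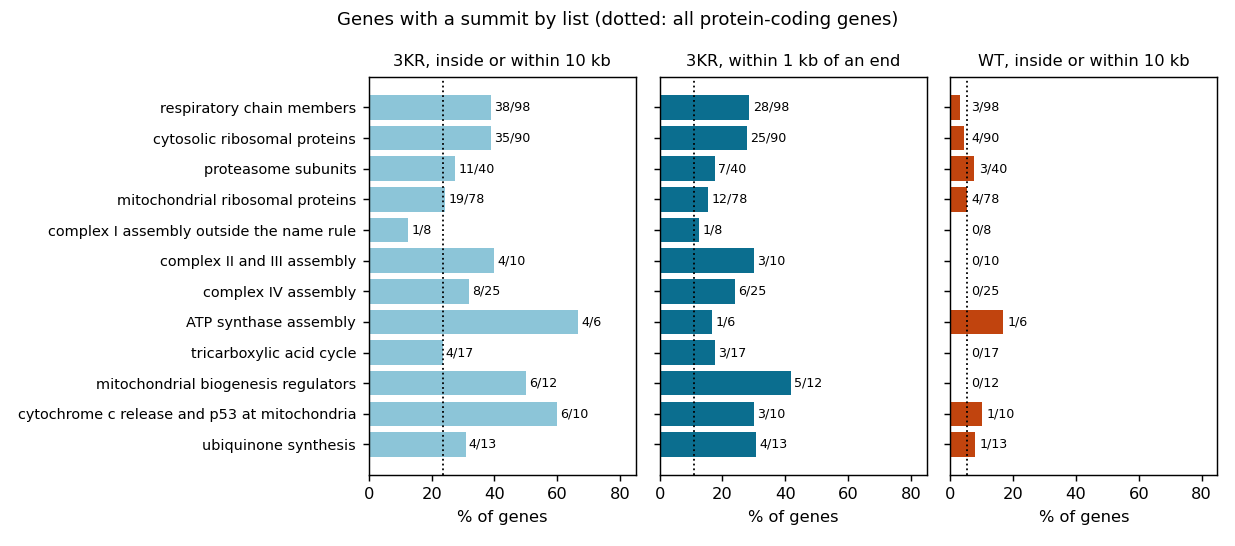
Percent of genes with a summit (x axis) for the respiratory chain and 11 other lists (y axis), with counts beside the bars, for 3KR at both distances and for WT. Dotted lines are all protein-coding genes, at 23.6%, 10.8% and 5.10%.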

How the data were processed

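p53 ChIP-seq summits of 2 genotypes, 3 libraries each, were analysed. Per the submitters' processing notes, BWA and MACS2 were used on mm10, with no versions named. How libraries were merged, which control served and at which threshold is not given in the sources used here. Deposited values are the authors' scores of single-base summits (column 3, 1-based), read as −log10 of a p-value or q-value; which of the 2 is not stated. Depth per library is not known, so no interval is given.

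Gene ends came from a RefSeq table of GRCm38.p6 (21631 protein-coding genes), starts and promoter sequences from a RefSeq table of the same build (79 of 98 genes, 17274 of all). Of the names in the related lists, Coa1 had no match. Counts, distances, ranks within a list and exact motif matches on both strands were computed with Python 3.11.15, pandas 2.3.3 and numpy 2.4.6, and the counting was checked on simulated summits. With 1 combined list per genotype, no test was run. The genes and lists were chosen with earlier results of these data known. Genes were named by a rule: those with a WT summit, the 20 with the highest 3KR scores, the leading and closest genes of each complex, and those beside the 10 kb limit; others named complete a group, and 1 gene is not reported here. Sequences were limited to bases upstream of starts, which left out Uqcrc1 and brought in Cycs. Alternatives varied distance, score, list length, gene assignment, membership and motif.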

Additional observations from a re-analysis of the deposited data

How the results depend on the processing

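Of 37 recomputed values, 16 stayed within 1.5 times the reported one. The count of genes with a 3KR summit (38) became 61 at 50 kb (62.2%, against 42.7% of all genes), 25 with nearest genes only (25.5%, against 17.3%) and 12 when 3KR was limited to its 1668 highest scores (12.2%, against 7.16% of all genes). The count within 1 kb of an end (28) became 6 with that shortened list (6.12%, against 2.85%). Without the 101 summits at the tied lowest score of that list these became 10 (against 6.78%) and 5 (against 2.69%), and with all of them 12 (against 7.17%) and 6 (against 2.86%). Both were chosen after the data were seen. The count with a WT summit (3) became 1 (1.02%) at 1 kb, at 5 kb and with nearest genes only, where 3.56%, 4.31% and 3.99% of all genes had one, and 9 at 50 kb (9.18%, against 11.8%). With distance taken to gene ends only, the WT count stayed 3 (3.06%), while the share of all genes fell from 5.10% to 3.44%. The count in both lists then stayed 2 (2.04%, against 2.64%). The count with a summit in both lists (2) became 1 (1.02%) at 1 kb, at 5 kb, in the upper 50% by score, with nearest genes only and with the shortened list, however its ties were treated, where 2.24% to 3.26% of all genes had one except in the upper 50% (1.93%), and 8 at 50 kb (8.16%, against 10%). The share of windows with an NRF1 motif (11.5%) became 46.2% with 1 base open, chosen after the sequences were seen. Shorter distances and shorter lists hold fewer summits by construction. Unknown depth limits what a missing WT summit can show, since the WT list has fewer summits. Leaving out a library was not run, since the lists hold no values of single libraries. No paired analysis was possible because each genotype has 1 combined list, without columns for its replicates.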
